A study of Homo sapiens with 8 samples.

Results

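The metallothionein genes MT2A, MT1A, MT1E, MT1F, MT1G, MT1M and MT1X were followed together with 2 partners, MTF1 and SLC30A1, in DU145 human prostate cancer cells. These 9 genes were chosen by symbol among the 23391 genes of the count table, and 8 of them passed the expression filter of 1 cpm (counts scaled to the library size) in 2 or more libraries. MT1G did not, and is described by its counts. On DY131, MT1E, MT1X and MT1F were lower in both cell pools at an adjusted p under 0.05, MT2A stood between 380 and 438 cpm in all 8 libraries, and MT1X fell further where Esrrb was expressed.

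DU145 cells were stably transfected with the pcDNA3.1-zeo (+) plasmid, either empty (DU145-pc3.1) or carrying Esrrb (DU145-Esrrb), selected with Zeocine for 3 weeks, and kept as pools of transfected cells, so that all 4 groups had gone through transfection and selection. Esrrb is an orphan nuclear receptor, and DY131 is a synthetic ligand of it. RNA came from both pools untreated or given 3 μM DY131, with 2 biological replicate libraries for each of the 4 groups, and the cells were in medium with charcoal-stripped serum. The length of the DY131 treatment and any vehicle in the untreated cultures were not given in the sources used here, and both pools carry the plasmid, which places Esrrb under the vector's promoter and not its own.

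The 8 libraries held 7858743 to 11551690 counts. ESRRB had 99 to 143 counts in the 4 DU145-Esrrb libraries and 0 to 3 in the 4 DU145-pc3.1 libraries, as the labels say. The epithelial markers KRT8, KRT18, KRT19, KRT7, EPCAM and CDH1 were present, with KRT5 at 0 in 7 of 8 libraries, and the 7 markers summed to 3769 to 4584 cpm. Summed fibroblast markers reached at most 5.89 cpm, endothelial markers 1.12 cpm and leukocyte markers 2.58 cpm. Of the leukocyte markers LYZ, which encodes lysozyme, was called lower in DY131-treated DU145-Esrrb cells, at 2 to 3 counts against 16 in each untreated DU145-Esrrb library, with an adjusted p of 0.00517 by edgeR's quasi-likelihood test. It was also called against treated DU145-pc3.1 (12 to 15 counts, adjusted p = 0.0109 by edgeR) and in the interaction (adjusted p = 0.0208 by edgeR).

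Metallothioneins are small cysteine-rich proteins that bind zinc and copper, and also take up cadmium. In cells loaded with zinc, the zinc-sensing factor MTF1 binds short metal response elements before the metallothionein genes and before SLC30A1, which encodes a zinc exporter of the plasma membrane. MT2A is widely expressed, and the MT1 genes are a cluster of recent duplicates beside it. Prostate epithelium is known for its high zinc content, which is lower in prostate cancer.

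All 7 metallothionein genes lie on chromosome 16 and have 3 exons. In GENCODE 29 on GRCh38, the gene MT2A spanned chr16:56608199-56609497, MT1E chr16:56625475-56627112, MT1F chr16:56657694-56660698 and MT1X chr16:56682424-56684196, all on the plus strand. MTF1 (chr1:37809567-37859620) and SLC30A1 (chr1:211571568-211578742) lie on the minus strand of chromosome 1 with 11 and 2 exons. The deposited counts were made on hg18, so these positions annotate the genes and were not used for counting. The coding sequences of the 4 metallothioneins on which the results turn are shown from the start codon, without the stop codon, to let their likeness be seen. Capitals mark the bases that differ from MT2A.
MT2A: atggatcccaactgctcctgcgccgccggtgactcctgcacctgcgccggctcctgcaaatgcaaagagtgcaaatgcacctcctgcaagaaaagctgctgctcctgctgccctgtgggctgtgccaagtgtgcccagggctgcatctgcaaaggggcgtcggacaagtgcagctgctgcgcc
MT1E: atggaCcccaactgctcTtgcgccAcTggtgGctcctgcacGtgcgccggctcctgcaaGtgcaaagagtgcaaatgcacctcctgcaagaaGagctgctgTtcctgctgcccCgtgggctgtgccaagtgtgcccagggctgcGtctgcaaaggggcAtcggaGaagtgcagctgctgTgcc
MT1X: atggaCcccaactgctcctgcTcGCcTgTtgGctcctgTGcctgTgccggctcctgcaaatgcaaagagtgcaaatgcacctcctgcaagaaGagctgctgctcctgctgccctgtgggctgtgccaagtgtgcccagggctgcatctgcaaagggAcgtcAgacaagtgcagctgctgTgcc
MT1F: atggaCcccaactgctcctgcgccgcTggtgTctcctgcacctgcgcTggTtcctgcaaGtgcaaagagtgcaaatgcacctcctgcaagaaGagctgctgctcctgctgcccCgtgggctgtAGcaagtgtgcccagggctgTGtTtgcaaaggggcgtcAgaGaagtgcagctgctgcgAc

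The coding length without the stop codon was 183 bases in each of the 7 genes. MT1E and MT1X each differed from MT2A at 14 positions and MT1F at 16. Over all pairs of the 7 genes, identity ran from 88.5% to 95.1%. The sequenced reads were 50 bases long, and a 50-base window of one gene can therefore occur unchanged in another. Of the windows within each transcript, 10.2% of those of MT2A, 10.0% of MT1E, 6.12% of MT1F and 18.0% of MT1X occurred in another metallothionein gene or pseudogene. With up to 2 mismatches allowed these shares were 36.4%, 59.0%, 18.1% and 28.2%. MT1X also shares sequence with the overlapping annotated transcript AC026461.1, which brought its shared windows to 51.0%. For MTF1 0.647% of the windows and for SLC30A1 none recurred in another gene, so their reads carry little or none of this ambiguity. How the authors' counting treated reads with several positions was not given in the sources used here, and each value of a single metallothionein gene is uncertain to that extent.

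Levels are compared between genes as cpm of the effective library size per kilobase of transcript within the RefSeq gene bounds. In untreated DU145-pc3.1 cells the order was MT2A (1035 ± 15.4 cpm per kb, SD, n = 2), MT1E (545 ± 12.6) and MT1X (48.9 ± 7.0), followed by MT1F (8.15 ± 1.37), MT1A (8.05 ± 1.505) and MT1M (6.35 ± 0.849). SLC30A1 (4.90 ± 0.0184) and MTF1 (3.47 ± 0.374) came below them, and MT1G (1.16 ± 1.02) was last. MT2A, MT1E and MT1X were separated by more than their spread, whereas MT1F, MT1A and MT1M, as neighbours, were not. In DY131-treated DU145-Esrrb cells the first 3 kept their order at 958 ± 15.8, 312 ± 11.2 and 12.96 ± 1.45 cpm per kb. There MT1F (3.15 ± 0.317 cpm per kb) stood below SLC30A1 (4.80 ± 0.0172) and MTF1 (4.27 ± 0.182).

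**Figure D1:**
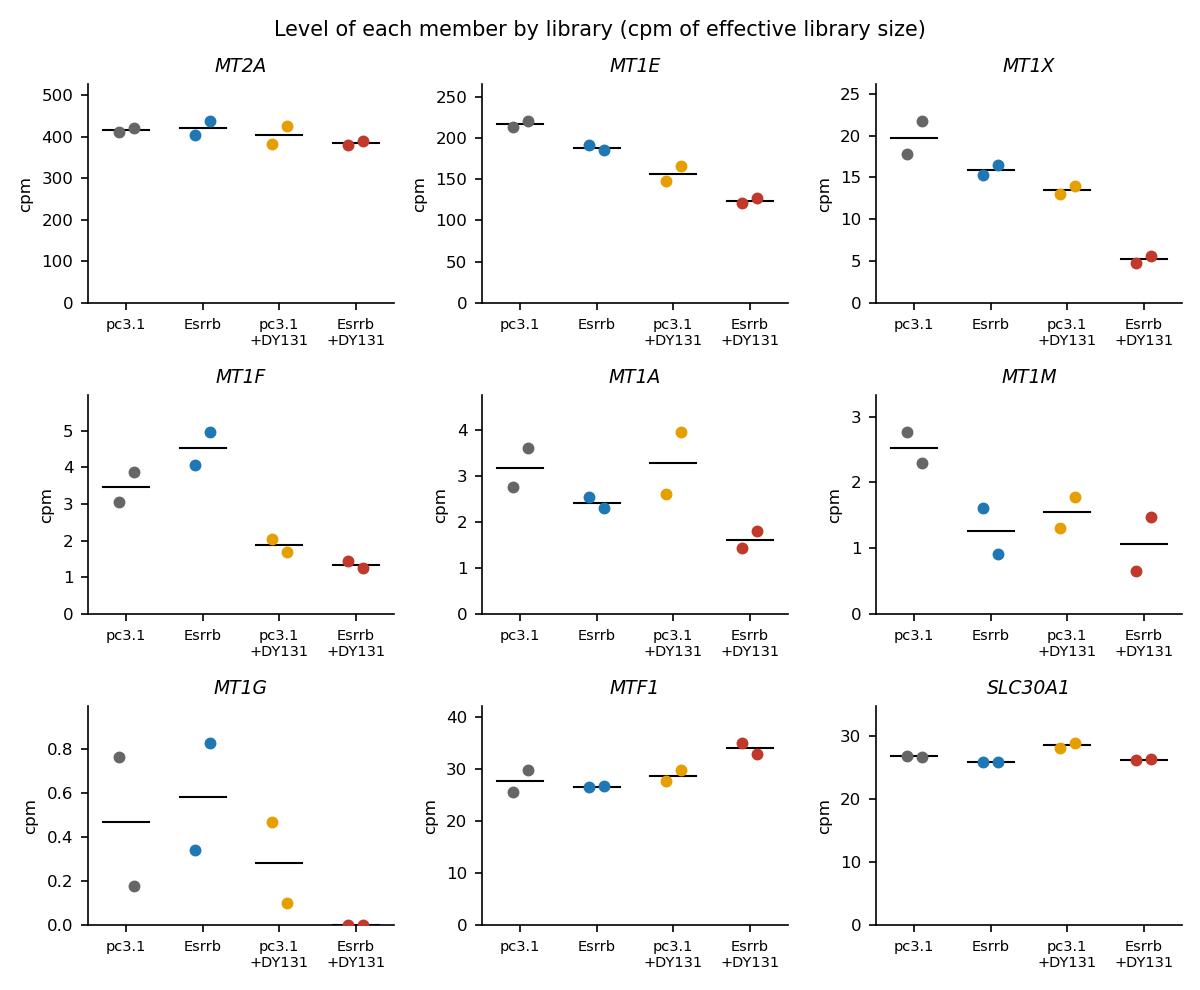
Level of each of the 9 genes in cpm of the effective library size (vertical axes from 0, a scale for each gene) in the 4 groups; points are libraries, 2 a group, and lines are group means. MT2A is between 380 and 438 cpm throughout, while MT1X drops to 4.82 and 5.65 cpm in DY131-treated DU145-Esrrb cells.

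The first question was whether Esrrb alone, without added ligand, altered these genes. A gene was called changed when edgeR's quasi-likelihood test, adjusted by Benjamini-Hochberg over all 13856 tested genes, gave an adjusted p under 0.05 with a log2 fold change of at least 1 in size. Among all tested genes 0.577% were called, and of the 8 tested members 0 were, by this test, by edgeR's exact test and by DESeq2. At an adjusted p under 0.05 alone 4.18% of all tested genes and 0 members passed. MT1X gave -0.32 on the log2 scale, with an adjusted p of 0.211 by edgeR's quasi-likelihood test. MT1E had a log2 difference of -0.20 (SE 0.06, adjusted p = 0.0836 by edgeR's quasi-likelihood test). Its adjusted p was 0.0117 with only the libraries compared and 0.0371 with no filter, by the same test. The fits without a library fell on both sides of 0.05, at log2 differences from -0.23 to -0.18. MT1M, a minor member with 10 to 29 counts in these 4 libraries, stood at 2.77 and 2.29 cpm in DU145-pc3.1 and at 1.61 and 0.920 cpm in DU145-Esrrb. Its log2 difference of -0.97 had a 95% interval from -1.76 to -0.19 and an adjusted p of 0.181 by edgeR's quasi-likelihood test. For MT2A the difference was 0.02, with a 95% interval from -0.12 to 0.15. MTF1 and SLC30A1 differed by -0.06 and -0.05 on the log2 scale, with intervals from -0.27 to 0.15 and from -0.24 to 0.14.

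The second question was the response to DY131 in cells with the empty vector. MT1E stood at 214 and 221 cpm in untreated DU145-pc3.1 libraries and at 148 and 165 cpm in treated ones. The log2 fold change was -0.47 (SE 0.06, adjusted p = 3.73e-05 by edgeR's quasi-likelihood test). MT1X stood at 17.7 and 21.7 cpm untreated and at 12.99 and 13.98 cpm treated, with a log2 fold change of -0.55 (SE 0.13, adjusted p = 0.00404 by edgeR's quasi-likelihood test). Without DU145-pc3.1 replicate 2 this was -0.40 with an adjusted p of 0.0788. MT1F, another metal-binding MT1 protein, stood at 3.05 and 3.87 cpm untreated and at 2.06 and 1.69 cpm treated. Its log2 fold change was -0.89 (SE 0.28, adjusted p = 0.0211 by edgeR's quasi-likelihood test), on only 17 to 44 counts a library, and DESeq2 gave an adjusted p of 0.165. Leaving out DU145-pc3.1 replicate 2 gave -0.70 with an adjusted p of 0.163, and leaving out treated replicate 2 gave -0.75 with 0.0765.

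None of these 3 reached the fold change threshold, so 0 of 8 members were called, where 4.19% of all tested genes were. The paper, in contrast, reports no gene altered by DY131 in cells without added Esrrb. Here 580 genes were called in that comparison, and 604 by edgeR's exact test, the kind of test the study used. The source of this difference was not tested. At an adjusted p under 0.05 alone, 3 of 8 members were lower and 0 higher, against 18.5% and 18.9% of all tested genes. MT2A gave -0.04 with a 95% interval from -0.17 to 0.10. The partners also lay near 0, at 0.05 for MTF1 (95% interval -0.16 to 0.26) and 0.09 for SLC30A1 (-0.10 to 0.28). MT1A and MT1M gave 0.03 and -0.71 on the log2 scale with adjusted p-values of 0.936 and 0.141 in the same edgeR fit. The median log2 fold change of the 6 tested metallothionein members was -0.51, beside -0.00 for all tested genes.

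The third question was the response to DY131 in cells that express Esrrb, and here 4 of the 8 tested members passed an adjusted p under 0.05. MT1X stood at 15.3 and 16.5 cpm in untreated DU145-Esrrb and at 4.82 and 5.65 cpm in the treated cells, on 179 to 180 counts against 37 to 50. The log2 fold change was -1.59 (SE 0.17), a 3.01-fold lower level with an adjusted p of 1.29e-06 by edgeR's quasi-likelihood test. MT1F went from 4.07 and 4.97 cpm to 1.43 and 1.24 cpm, on 48 to 54 counts against 11 in each treated library. Its log2 fold change was -1.75 (SE 0.30, adjusted p = 0.000153 by edgeR's quasi-likelihood test).

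MT1X and MT1F were the 2 members called of the 8 tested, both lower, where 12% of all tested genes were called and 9.04% were called lower. MT1E, the second most abundant metallothionein of these cells, fell by less, from 191 and 185 cpm to 121 and 127 cpm. The 2 groups were apart by more than their spread, and the log2 fold change was -0.60 (SE 0.07, adjusted p = 1.63e-06 by edgeR's quasi-likelihood test). MT2A stood at 404 and 438 cpm untreated and at 380 and 389 cpm treated, a log2 difference of -0.13 with a 95% interval from -0.27 to 0.0049 and an adjusted p of 0.0905. MT1A and MT1M, both under 3 cpm in these libraries, gave -0.57 and -0.23 with adjusted p-values of 0.173 and 0.693 in the edgeR fit. At an adjusted p under 0.05 alone 3 of the 8 members were lower and 1 higher, against 29.5% and 29.2% of all tested genes, and the median of the 6 metallothionein members was -0.58 beside -0.00 for all tested genes.

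MT1G, too low for the filter of the main fit, was at 0 in both treated DU145-Esrrb libraries. It had 8 and 2 counts in DU145-pc3.1, 4 and 9 in DU145-Esrrb, 5 and 1 in treated DU145-pc3.1, and 0 and 0 in treated DU145-Esrrb. A count of 0 allows up to 0.382 and 0.331 cpm of the total counts in the 2 libraries, taken as 3 counts each. Of the untreated DU145-Esrrb libraries replicate 1, at 0.346 cpm, lay between these limits and replicate 2, at 0.843 cpm, above them, so no fold is given from them. Such limits cover counting error only. With no filter on low counts, MT1G gave -5.59 on the log2 scale for DY131 in DU145-Esrrb cells (SE 1.84, adjusted p = 0.00656 by edgeR's quasi-likelihood test). That passes both thresholds, but it rests on 4 and 9 counts against 0 and 0, and its size is not read as a measured fold.

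Neither partner was lower. MTF1, the zinc-sensing factor, stood at 26.4 and 26.7 cpm in untreated DU145-Esrrb and at 34.9 and 32.9 cpm after DY131. It rose by 0.35 on the log2 scale (SE 0.10, adjusted p = 0.00672 by edgeR's quasi-likelihood test), short of the fold change threshold. Without the first treated DU145-Esrrb library the adjusted p was 0.0618. SLC30A1 stood at 25.9 and 25.9 cpm untreated and at 26.2 and 26.3 cpm treated, a difference of 0.02 with a 95% interval from -0.18 to 0.22. Both of these values changed with a correction for exon structure, as given further on.

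**Figure D2:**
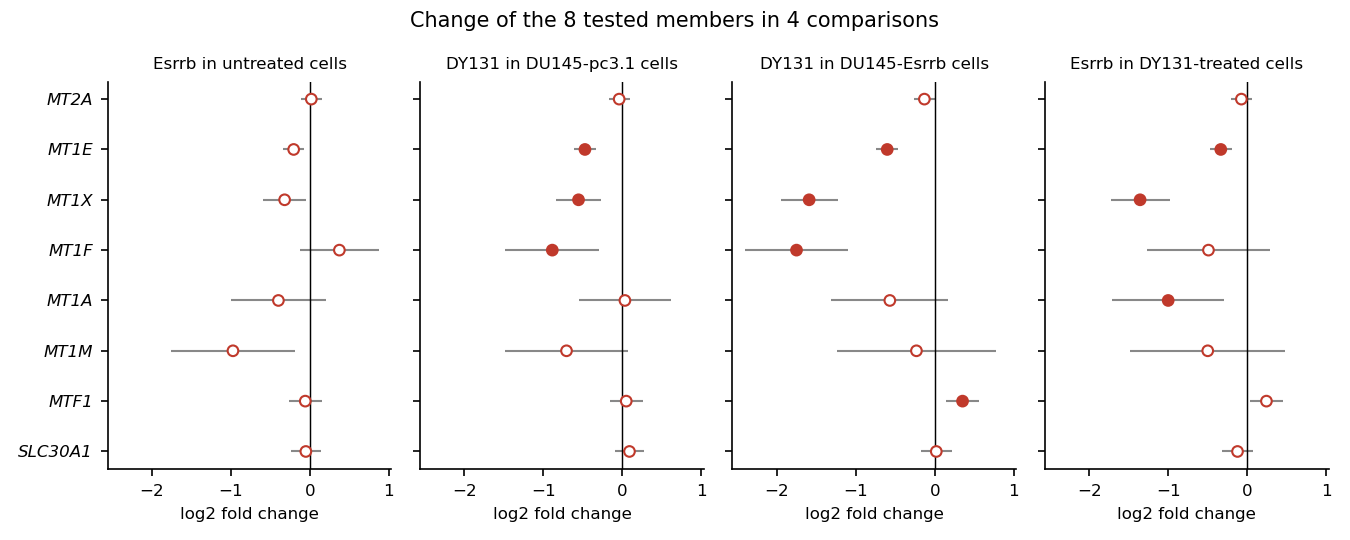
Log2 fold changes (horizontal axes) of the 8 tested genes in 4 comparisons, with 95% intervals as bars; filled points have an adjusted p under 0.05 by edgeR's quasi-likelihood test. MT1X and MT1F lie beyond -1 for DY131 in DU145-Esrrb cells, and the interval of MT2A lies between -0.27 and 0.15 in every panel.

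The last pair of comparisons set the cell pools against each other under DY131 and tested whether DY131 acted differently in them. Under DY131, MT1X was lower in DU145-Esrrb than in DU145-pc3.1 by 1.35 on the log2 scale, that is a change of -1.35 (SE 0.18, adjusted p = 1.39e-05 by edgeR's quasi-likelihood test), and it was 1 of 8 members called, where 8.21% of all tested genes were. MT1E gave -0.33 (SE 0.07, adjusted p = 0.000675 by edgeR's quasi-likelihood test), but -0.0023 (adjusted p = 0.978) after correction for length and GC content and -0.11 (adjusted p = 0.244) after correction for junction windows within RefSeq bounds. MT1A, which stood at 2.62 and 3.97 cpm in treated DU145-pc3.1 and at 1.43 and 1.81 cpm in treated DU145-Esrrb, gave -0.999 with an adjusted p of 0.0206 in the same fit, just inside the fold change threshold and so not called. For MT1A the adjusted p was 0.152 without treated DU145-pc3.1 replicate 2, 0.121 and 0.0579 without the first or the second treated DU145-Esrrb library, 0.102 by DESeq2, and 0.0854 to 0.459 under the 3 corrections for gene structure. MT1A, MT1E and MT1X were the 3 of 8 members lower at an adjusted p under 0.05, against 25.3% of all tested genes. MTF1 gave 0.24 and SLC30A1 -0.12, with adjusted p-values of 0.0531 and 0.295 in the same fit. Over 18 alternatives SLC30A1 ran from -0.47 to -0.10, and its adjusted p from 0.000894 to 0.558. These comparisons share libraries with those above.

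The difference between the 2 DY131 responses was tested as an interaction. For MT1X it was -1.04 on the log2 scale (SE 0.22, adjusted p = 0.00217 by edgeR's quasi-likelihood test), which made it the 1 member called of 8, where 6.28% of all tested genes were. Leaving out DU145-pc3.1 replicate 1 gave -0.91, DU145-Esrrb replicate 2 -0.99, treated DU145-pc3.1 replicate 2 -0.98 and the first treated DU145-Esrrb library -0.94, each just inside the fold change threshold, and the adjusted p was at most 0.0212 over all 8 such fits. MT1F gave -0.86 (SE 0.43) with an adjusted p of 0.138, and MT1E gave -0.13 with a 95% interval from -0.32 to 0.07. A response of MT1F or MT1E that depends on Esrrb was therefore not shown, although both fell on DY131 in both pools in the main fit. MTF1 and SLC30A1 gave 0.30 and -0.07, with adjusted p-values of 0.111 and 0.705 in the same fit. Over 16 alternatives SLC30A1 ran from -0.40 to -0.053, and its adjusted p from 0.0363 to 0.852.

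Since reads can be exchanged between near-identical copies, the counts of all 15 metallothionein rows of the table, pseudogenes included, were also added up. The sum stood at 686 ± 16.6 cpm in DU145-pc3.1, 664 ± 19.3 in DU145-Esrrb, 608 ± 46.6 in treated DU145-pc3.1 and 543 ± 14.6 in treated DU145-Esrrb (SD, n = 2). On DY131 it gave -0.17 in DU145-pc3.1 (SE 0.06, adjusted p = 0.0391) and -0.30 in DU145-Esrrb (SE 0.06, adjusted p = 0.000699), in the same edgeR fit. Leaving out treated DU145-pc3.1 replicate 1 brought the first value to -0.089 (adjusted p = 0.188), and of the 8 fits without a library only that without treated replicate 2 kept an adjusted p under 0.05, at -0.26. The interaction of the sum was -0.13 with an adjusted p of 0.28. After correction for length and GC content the sum turned to 0.22 (adjusted p = 0.00296) in DU145-Esrrb cells and its interaction to 0.23 (adjusted p = 0.0296), both by edgeR.

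Within the sum, the share of each member does not depend on library size. MT2A made up 60.5 ± 0.559% of the metallothionein counts in DU145-pc3.1, 63.3 ± 1.76% in DU145-Esrrb, 66.5 ± 0.0732% in treated DU145-pc3.1 and 70.8 ± 0.739% in treated DU145-Esrrb (SD, n = 2). MT1E went from 31.6 ± 0.0331% and 28.4 ± 1.48% untreated to 25.8 ± 0.0942% and 22.9 ± 0.204% treated. MT1X made up 2.87 ± 0.343%, 2.39 ± 0.0564%, 2.22 ± 0.0546% and 0.964 ± 0.0819% in the same 4 groups. The shares of MT1E and MT1X were lower, and that of MT2A higher, on treatment in both pools by more than the spread of the replicates, with the level of MT2A itself at 415 and 421 cpm untreated and 404 and 384 cpm treated on average. The pseudogene MT1L held 3.23 ± 0.229% and 4.29 ± 0.267% untreated and 4.14 ± 0.0314% and 4.55 ± 0.334% treated.

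**Figure D3:**
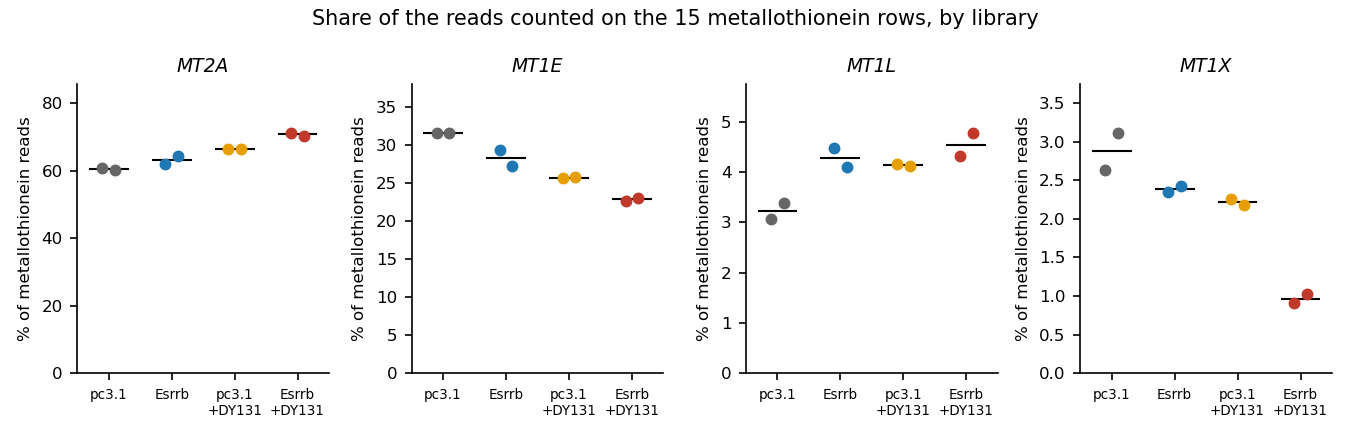
Share (%) of all reads counted on the 15 metallothionein rows that fell on MT2A, MT1E, MT1L and MT1X, by library (points, 2 a group) with group means as lines; vertical axes start at 0. MT2A rises from 60.5% to 70.8% between untreated DU145-pc3.1 and treated DU145-Esrrb, and MT1X drops from 2.87% to 0.964%.

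Change in DU145-Esrrb cells on DY131 moved with gene structure over the whole table. The share of 50-base windows that cross an exon junction was taken within RefSeq bounds. It had a Spearman correlation of -0.388 with the log2 fold change across 13346 genes. These genes share the libraries and are not independent. The 1336 genes with the lowest shares had a median log2 fold change of 0.28, and the 1335 with the highest shares, from 32.0%, one of -0.59. The 1334 genes with shares from 26.4% to 32.0%, the range that holds the shares of all the metallothioneins but MT1F, had a median of -0.30 and quartiles of -0.67 and 0.03. With the empty vector this correlation was 0.0055, while for Esrrb under DY131 it was -0.486 and for the interaction -0.471. Within these bounds the 7 metallothioneins have nearly equal shares, from 26.1% to 28.2%, while MTF1 has 6.21% and SLC30A1 0.903%. On the uncut GENCODE transcripts their shares are unlike, with 12.6% for MT1M, 13.3% for MT2A, 24.4% for MT1X and 28.2% for MT1A.

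Uncorrected, the DY131 changes of the tested metallothionein members in DU145-Esrrb cells ran from -0.13 for MT2A to -1.75 for MT1F. With the log ratios corrected for junction windows within the RefSeq bounds, a correction chosen after the data were seen, the DY131 change in DU145-Esrrb cells was -1.40 for MT1X (adjusted p = 6.73e-06), -1.59 for MT1F (adjusted p = 0.000455) and -0.40 for MT1E (adjusted p = 0.000171), each by edgeR's quasi-likelihood test. MT2A was then at 0.07 with an adjusted p of 0.41, MTF1 at 0.10 with an adjusted p of 0.408 and SLC30A1 at -0.27 with an adjusted p of 0.0227. The MT1X interaction became -0.82 with an adjusted p of 0.0147. The rise of MTF1 was thus lost under this correction, and the summed metallothioneins gave -0.10 with an adjusted p of 0.194. Correcting for the length and GC content of transcripts moved the metallothioneins higher, with MT1X at -0.96 and MT1F at -1.25. MT1E was then at -0.11 with an adjusted p of 0.132, and MT2A at 0.37 with an adjusted p of 0.000119, both by edgeR's quasi-likelihood test. The fall of MT1E was thus lost under this correction, and MT2A was higher. This correction used uncut GENCODE transcripts, of 786 bases for MT2A, 704 for MT1E, 690 for MT1F and 450 for MT1X. Within RefSeq bounds these are 401, 398, 425 and 404 bases, so its values depend on the annotation. The part of gene structure in the uncorrected values was not tested beyond these corrections.

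**Figure D4:**
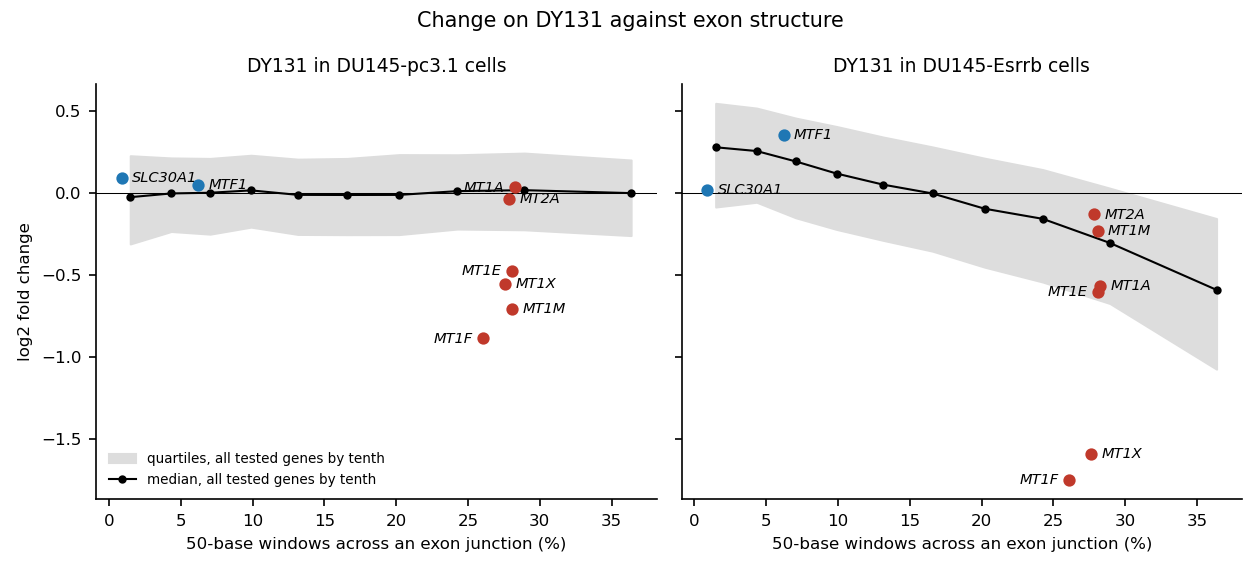
Log2 fold change on DY131 (vertical axis) against the share of 50-base transcript windows that cross an exon junction (horizontal axis, %) in both cell pools; the line and band are the median and quartiles of all tested genes in 10 bins of that share, and points are the 8 tested members. In DU145-Esrrb cells the medians run from 0.28 to -0.59, with MT1X and MT1F below the band.

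**Figure D5:**
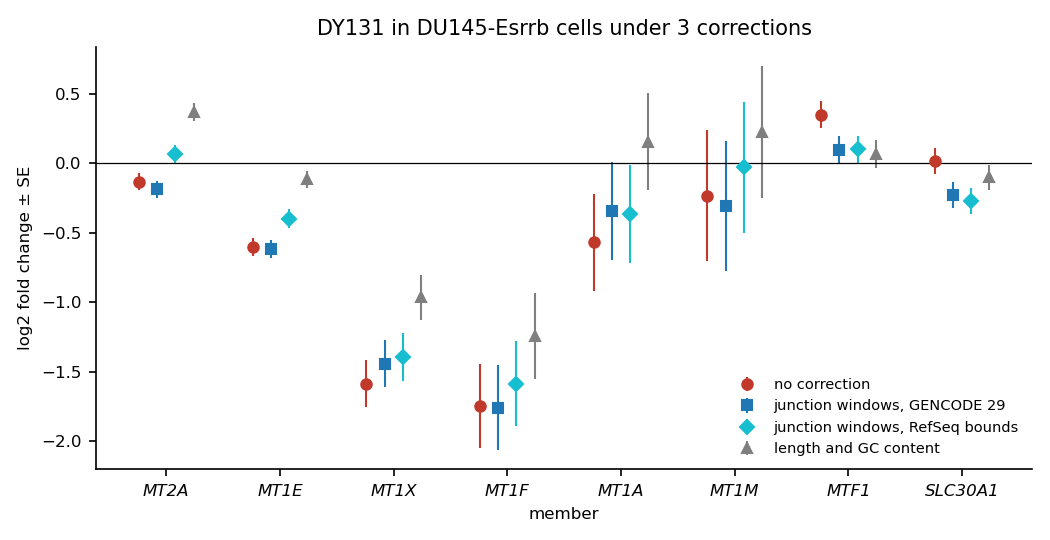
Log2 fold change ± SE on DY131 in DU145-Esrrb cells (vertical axis) of the 8 tested members with no correction and under 3 corrections. MT1X stays between -1.59 and -0.96 and MT1F between -1.76 and -1.25, while MT2A runs from -0.19 to 0.37.

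As background to the members, their promoters were searched for metal response elements, and no binding was measured. The 250 bases before the RefSeq start (GRCh38.p14) were searched on both strands for the core of the element, TGCACNC or TGCGCNC, which differ at 1 base and cannot match the same bases on 1 strand. RefSeq promoter sequences were given for 4 of the 9 members, and 24.8% of the 35116 promoters in the table had at least 1 match. The RefSeq starts of MT2A and MT1X lie downstream of the GENCODE starts given above, so that the windows overlap the GENCODE genes. MT2A, without a call, and MT1X, which fell, are shown with matches in capitals, both on the plus strand, the first from chr16:56608334-56608583 and the second from chr16:56682220-56682469.
MT2A: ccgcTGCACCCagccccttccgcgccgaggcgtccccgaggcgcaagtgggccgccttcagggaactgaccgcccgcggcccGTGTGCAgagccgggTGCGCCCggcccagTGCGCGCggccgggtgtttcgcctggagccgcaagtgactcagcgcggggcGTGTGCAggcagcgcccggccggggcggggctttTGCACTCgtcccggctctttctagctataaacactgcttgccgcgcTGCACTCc
MT1X: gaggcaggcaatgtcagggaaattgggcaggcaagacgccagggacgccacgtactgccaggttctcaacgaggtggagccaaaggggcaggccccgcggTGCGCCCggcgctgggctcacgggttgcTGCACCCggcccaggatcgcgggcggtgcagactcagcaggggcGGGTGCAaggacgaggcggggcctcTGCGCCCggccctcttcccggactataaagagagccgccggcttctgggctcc

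MT2A had 7 matches, a number reached by 0.0313% of the promoters, and MT1X had 4, reached by 0.370% of them. SLC30A1 had 1 match, which 24.8% of the promoters also reach, and MTF1 had 0. A match is a string of letters and not evidence of binding.

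Other genes of metal handling were read from fixed lists. Of 7 tested zinc exporters other than SLC30A1, 0 were called on DY131 in DU145-Esrrb cells, and 2 were higher and 2 lower at an adjusted p under 0.05. Over all tested genes these shares were 12% called, 29.2% higher and 29.5% lower. Of 10 tested zinc importers 1 was called, SLC39A11. It had 33.3 ± 4.11 cpm before and 14.6 ± 2.16 cpm after treatment (SD, n = 2), a change of -1.19 on the log2 scale with an adjusted p of 1.52e-06 by edgeR's quasi-likelihood test. Of 13 tested genes of copper handling 1 was called, COX17, a chaperone that brings copper to cytochrome c oxidase. It went from 13.05 ± 0.926 to 3.03 ± 1.15 cpm with a log2 fold change of -2.08 and an adjusted p of 1.44e-06 in the same fit. At an adjusted p under 0.05, 2 importers were higher and 2 lower, and 1 copper gene was higher and 4 lower. The median log2 fold changes of the 3 lists were -0.03, 0.03 and -0.07 beside -0.00 for all tested genes.

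In DU145-pc3.1 cells 0 genes of these 3 lists were called on DY131, where 4.19% of all tested genes were. Under DY131, SLC30A5, a zinc transporter of the secretory pathway, was the 1 exporter called between the pools, with a log2 difference of -1.21 and an adjusted p of 4.43e-05 by edgeR's quasi-likelihood test, and COX17 was the 1 copper gene called, at -2.32 with an adjusted p of 6.44e-07. Of the 8 other regulators on the list, among them NR3C1, the glucocorticoid receptor, USF1 and SP1, 0 were called in any of the 5 comparisons, where 0.577% to 12% of all tested genes were. At an adjusted p under 0.05 alone, 2 were higher and 1 lower on DY131 in DU145-Esrrb cells, against 29.2% and 29.5% of all tested genes. These were SP1 at 0.44, CTCF at 0.37 and HSF1 at -0.50 on the log2 scale. Of 2 further metallothionein rows tested, MT1L was not called in any comparison. MT1B was called lower on DY131 in DU145-Esrrb cells. It had 16 and 13 counts in untreated DU145-Esrrb and 0 and 1 after DY131, with an adjusted p of 0.000508 in the edgeR fit, and 9 and 8 counts in treated DU145-pc3.1. It was also called for Esrrb under DY131 (adjusted p = 0.0053 by edgeR) and in the interaction (adjusted p = 0.0186 by edgeR), and COX17 was called in the interaction at -2.26 (adjusted p = 2.61e-05 by edgeR).

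The genes whose log2 cpm followed that of MT2A most closely over the 8 libraries were RAMP1 (Pearson's r = 0.962), RAB28 (0.955), MRPL42 (0.948), S100A13 (0.944) and C11orf63 (0.938). The other members stood below them, with 0.718 for MT1E and for MT1X, 0.659 for MT1F, 0.634 for MT1A, 0.331 for MT1M, 0.0423 for SLC30A1 and -0.503 for MTF1. These values rest on 8 libraries that fall into 4 groups and are given as a description.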

How the data were processed

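RNA from 8 DU145 cultures, 2 for each of 4 groups, had been sequenced by the authors as single-end reads of 50 bases from a stranded mRNA kit, trimmed and filtered with the FASTX-Toolkit and mapped to hg18 with TopHat2. The deposited values are raw read counts per gene, made by the authors with their tool MULTICOM-MAP, for 23391 genes. The handling of multi-mapped reads and of strand was not given in the sources used here. Library totals were 7858743 to 11551690 counts. The columns of treated DU145-Esrrb cells carry no replicate number.

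Counts were fitted with edgeR 4.0.16 (R 4.3.3): a filter of 1 cpm in 2 or more libraries (13856 genes kept), TMM, 1 quasi-likelihood model over all 8 libraries with 4 groups, and Benjamini-Hochberg adjustment over all tested genes. The filter and thresholds follow the study, which used edgeR's exact test. Calls needed both an adjusted p under 0.05 and a log2 change of 1 or more in size; the summed family needed the adjusted p alone. SE is the size of the log2 fold change over the root of F. Replicates differed by more than counting error, with chi-square per degree of freedom from 1.29 to 7.30. The value was 7.30 in treated DU145-pc3.1, against 2.67 in DU145-pc3.1, 1.83 in DU145-Esrrb and 1.29 in treated DU145-Esrrb. Spread was shared over the groups, so SE and p may be too small in comparisons with treated DU145-pc3.1. Alternatives were DESeq2 1.42.0, the exact test, other scalings and filters, left-out libraries, and offsets fitted with natural splines (5 degrees of freedom) for length and GC content or junction windows. Gene structure came from GENCODE 29 (GRCh38), with 22018 rows matched by RefSeq identifier, 721 by symbol and 652 not matched. Shared windows, levels per kilobase and the junction correction within RefSeq bounds used transcripts cut to those bounds (GRCh38.p14). The length and GC correction and the other junction correction used the uncut GENCODE transcripts. The procedure was tested on simulated data. All 9 members are named, and of the lists each called gene. Members and lists were chosen with earlier results of these data known.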

Additional observations from a re-analysis of the deposited data

Results flagged for a closer look

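The response of MT1X to DY131 differed between the 2 cell pools by the test of the difference itself. The DY131 change in DU145-Esrrb cells minus that in DU145-pc3.1 cells was -1.04 on the log2 scale, with an adjusted p of 0.00217 by edgeR's quasi-likelihood test. Both treated DU145-Esrrb libraries, at 4.82 and 5.65 cpm, lay below the 6 others, which lay between 12.99 and 21.7 cpm. Over 16 alternatives the difference ran from -1.19 to -0.49 and its adjusted p from 4.24e-05 to 0.0788. It was below 1 in size in 7 of them, which are 4 fits without a library and the 3 corrections for gene structure. Over the whole table this difference also moved with the share of junction windows (Spearman correlation -0.471). MT1X has 18.0% of its windows in common with other metallothionein genes or pseudogenes, and 51.0% when the overlapping transcript AC026461.1 is included. The part of this in the result was not tested.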

How the results depend on the processing

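On DY131 in DU145-Esrrb cells MT1F stayed called under all 18 alternatives and MT1X under 17, the exception being the correction for length and GC content. MT1G, absent from the main fit, was also called in this comparison with no filter on low counts (adjusted p = 0.00656 by edgeR's quasi-likelihood test). Counts of members called changed as follows. Without the fold change threshold they were 3 for DY131 in DU145-pc3.1 cells, 4 for DY131 in DU145-Esrrb cells and 3 for Esrrb under DY131. Correction for length and GC content gave 1 for DY131 in DU145-Esrrb cells, 0 for Esrrb under DY131 and 0 for the interaction, where both junction corrections also gave 0. For Esrrb under DY131, DESeq2 size factors, library size alone, no filter, a filter of 10 counts in every library and the libraries compared alone each gave 2, since MT1A passed the fold change threshold. Leaving out a library gave 0 to 1 members for DY131 in DU145-pc3.1 cells, 1 to 2 for Esrrb under DY131 and 0 to 1 for the interaction.

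The summed metallothioneins depended most on the correction. With length and GC content they gave -0.013 for DY131 in DU145-pc3.1 cells, 0.22 for DY131 in DU145-Esrrb cells, 0.22 for Esrrb under DY131 and 0.23 for the interaction. Junction windows within RefSeq bounds gave -0.10, 0.044 and 0.086 for the last 3, and junction windows of the GENCODE transcripts -0.11 for Esrrb under DY131. The libraries compared alone gave, for DY131 in DU145-pc3.1 cells, -0.16 (adjusted p = 0.106 by edgeR) and the 6 numbered libraries -0.18 (adjusted p = 0.0635). Leaving out a library gave -0.26 to -0.089 there, -0.25 to -0.083 for Esrrb under DY131 and -0.21 to -0.037 for the interaction. The cause of these shifts was not tested.

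Signs of members without a call also turned. Under length and GC content, on DY131 in DU145-pc3.1 cells, MT2A gave 0.17, MTF1 -0.15 and SLC30A1 -0.022; in DU145-Esrrb cells MT2A gave 0.37, MT1A 0.16, MT1M 0.23 and SLC30A1 -0.10; MT2A gave 0.24 for Esrrb under DY131, and the interaction was 0.20 for MT2A, 0.051 for MT1A and 0.17 for MT1E. Under junction windows within RefSeq bounds MT2A gave 0.068 and SLC30A1 -0.27 for DY131 in DU145-Esrrb cells, MT2A 0.15 and MTF1 -0.0017 for Esrrb under DY131, and the interaction was 0.13 for MT2A and 0.10 for MT1E. Junction windows of the GENCODE transcripts gave -0.23 for SLC30A1 on DY131 in DU145-Esrrb cells and -0.010 for MTF1 under DY131. Library size alone gave -0.0030 for MT1A on DY131 in DU145-pc3.1 cells and -0.042 for SLC30A1 in DU145-Esrrb cells, where the filter of 10 counts gave -0.017. Leaving out a library moved MT2A from -0.039 to 0.076 and MTF1 from -0.16 to 0.058 for Esrrb in untreated cells; MT2A from -0.12 to 0.047, MT1A from -0.29 to 0.32 and MTF1 from -0.047 to 0.17 for DY131 in DU145-pc3.1 cells; MT1M from -0.96 to 0.24 for DY131 in DU145-Esrrb cells and from -0.26 to 0.94 for the interaction; and MT2A from -0.16 to 0.0058 for Esrrb under DY131.

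No pairing by the replicate numbers of the sample titles was seen, as deviations of same-numbered libraries correlated at 0.0917, 0.0229 and -0.0685. Such values cannot exclude a pairing. The column headings number some libraries otherwise, and pairing by heading was not checked. With the replicate block in the 6 numbered libraries, 0 members were called in either comparison, and the sum gave -0.18 (adjusted p = 0.0234 by edgeR) for DY131 in DU145-pc3.1 cells. Low counts limit MT1F, MT1A, MT1M and MT1G.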
